A study of Homo sapiens with 6 samples.

Results

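Apolipoproteins are the protein coats of lipoproteins, the particles that carry cholesterol and triglyceride through body fluids. The genes described here are 9 apolipoprotein genes, APOA1, APOA4, APOB, APOC1, APOE, APOH, APOL1, APOL2 and APOM, and MTTP, which loads lipid onto apolipoprotein B. They were chosen by family and role, with the values of this comparison already known, and all 10 of them had a row among the 16670 genes of the deposited table. In the liver and the intestine, MTTP and apolipoprotein B start a particle inside the endoplasmic reticulum, and other apolipoproteins join it there or later in the circulation. APOE is made by many other cell types as well, and the APOL proteins act mostly inside cells, so that the gene names cover several functions.

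RNA came from A549, an established human line of non-small cell lung cancer, in 6 libraries labelled as biological replicates. The 3 salinomycin libraries were of cells given 1 week of alisertib and then 2.5 µM salinomycin for 48 h, and the 3 untreated libraries were of cells given the same week of alisertib without salinomycin. Alisertib blocks Aurora A, a kinase of cell division, and the week of exposure served to induce senescence, a lasting growth arrest. Salinomycin is a polyether that ferries alkali metal ions across membranes. The comparison asks what salinomycin changes in cells that are already senescent; A549 is 1 cell line, and cells without alisertib were not analysed here.

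The deposited values were rescaled by the authors, and the reads behind them, estimated from the rounding steps, numbered 14932969 to 19641149 in salinomycin libraries and 13539959 to 16239897 in untreated libraries. Values are given in normalised units, the deposited values less 1 after trimmed-mean scaling between libraries. A gene was tested if its deposited value, less the 1 that appears to have been added to every value, reached 10 in at least 3 libraries, which 13088 genes did. The epithelial keratin genes KRT8 and KRT18 were abundant in every library, at 11786 ± 1124 and 20262 ± 724 units with salinomycin against 69665 ± 4132 and 84124 ± 4538 units in untreated cells (SD, n = 3 each). The surfactant gene SFTPC, which marks mature alveolar cells, reached no more than 1.08 units in any library. The hepatocyte gene ALB did not exceed 0.938 units with salinomycin or 9.58 units in untreated cells. The label of an epithelial line is thus met by its keratins, but not by every marker of the line. EPCAM was scarce, at 19.0 ± 3.06 units with salinomycin and 46.7 ± 9.02 units in untreated cells. CDH1 had 540 ± 56.1 and 2306 ± 142 units, and VIM, the vimentin gene, 12975 ± 69.5 and 14187 ± 1634 units, in the same order. SFTPC and ALB were scarce. Other hepatocyte markers were mixed. HP was scarce as well, at 0.313 ± 0.542 units with salinomycin and 7.13 ± 3.24 units in untreated cells. Some others, such as FGA and FGG, were abundant in untreated cells and are given beside APOH.

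Start-site windows from RefSeq (GRCh38.p14; 250 bases before to 50 bases after the start) matched 6 of the 10 genes, in 9 windows. The windows of APOA4 and APOH are shown because these genes had the highest and the lowest log2 change of the 10, and one window of MTTP because it holds the same motif as that of APOH. APOA4 lies on the minus strand at chr11:116823255-116823554, APOH on the minus strand at chr17:66229366-66229665 and MTTP on the plus strand at chr4:99574574-99574873. Capitals mark a match to TTAATNATT, a motif found in hepatic promoters, or to the TATA box TATAAA.
APOA4: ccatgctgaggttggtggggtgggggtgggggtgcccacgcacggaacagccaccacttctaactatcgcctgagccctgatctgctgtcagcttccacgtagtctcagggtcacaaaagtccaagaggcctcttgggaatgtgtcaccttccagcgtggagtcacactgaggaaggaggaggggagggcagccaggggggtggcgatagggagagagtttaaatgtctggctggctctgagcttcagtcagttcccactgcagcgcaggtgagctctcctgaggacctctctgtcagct
APOH: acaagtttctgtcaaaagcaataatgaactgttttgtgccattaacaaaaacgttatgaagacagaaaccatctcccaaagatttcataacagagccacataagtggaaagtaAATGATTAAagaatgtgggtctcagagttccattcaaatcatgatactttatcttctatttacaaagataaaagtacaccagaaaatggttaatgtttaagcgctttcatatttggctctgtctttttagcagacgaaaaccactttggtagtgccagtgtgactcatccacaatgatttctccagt
MTTP: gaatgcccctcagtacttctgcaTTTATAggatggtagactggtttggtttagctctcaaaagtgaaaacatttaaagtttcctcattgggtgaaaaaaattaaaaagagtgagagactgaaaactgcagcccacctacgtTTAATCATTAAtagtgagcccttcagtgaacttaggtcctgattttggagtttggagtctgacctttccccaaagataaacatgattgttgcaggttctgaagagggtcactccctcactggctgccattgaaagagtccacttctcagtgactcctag
A total of 7 motifs were searched on both strands of 35116 windows of 300 bases. TTAATNATT stood in 1.31% of all windows, once in that of APOH, from 137 bases before the start on the minus strand of the gene. In the MTTP window it stood from 109 bases before the start on the plus strand and, overlapping that match, from 107 bases before it on the minus strand. TATAAA, found in 11.5% of all windows, stood on the minus strand of the same MTTP window, from 227 bases before the start. None of the other motifs had a match in any of the 9 windows. These were the cyclic AMP response element TGACGTCA (1.85% of all windows), the HNF4 motif CAAAGTCCA (0.384%), the sterol motif TCACNCCAC (1.13%), the C/EBP-ATF motif TGATGNAAT (0.991%) and the interferon element GAAANNGAA (8.11%). A match of letters is a description of the window and shows no binding.

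With salinomycin APOA4 appeared and APOL2 was higher, while APOH, APOL1 and APOC1 were lower. APOE and APOM did not pass the threshold, and MTTP, APOB and APOA1 were at or near 0 in both groups. In numbers, 7 of the 10 genes were tested with limma over all 13088 genes at a Benjamini-Hochberg adjusted p under 0.05, and 3 were below the filter on low values. Of the 7, 2 were higher with salinomycin, where 41.6% of all tested genes were, and 3 were lower, where 40.2% were. The libraries of the groups did not overlap for 6 of the 7, against 83.0% of all tested genes. Because the genes were chosen with this comparison known, these counts and the values below are a description, and nothing is read from them about the group as a whole. The median log2 change (salinomycin over untreated) of the 7 was -0.48, against 0.02 over all tested genes. In bulk RNA, fewer cells of a type and less RNA per cell cannot be told apart.

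**Figure D1:**
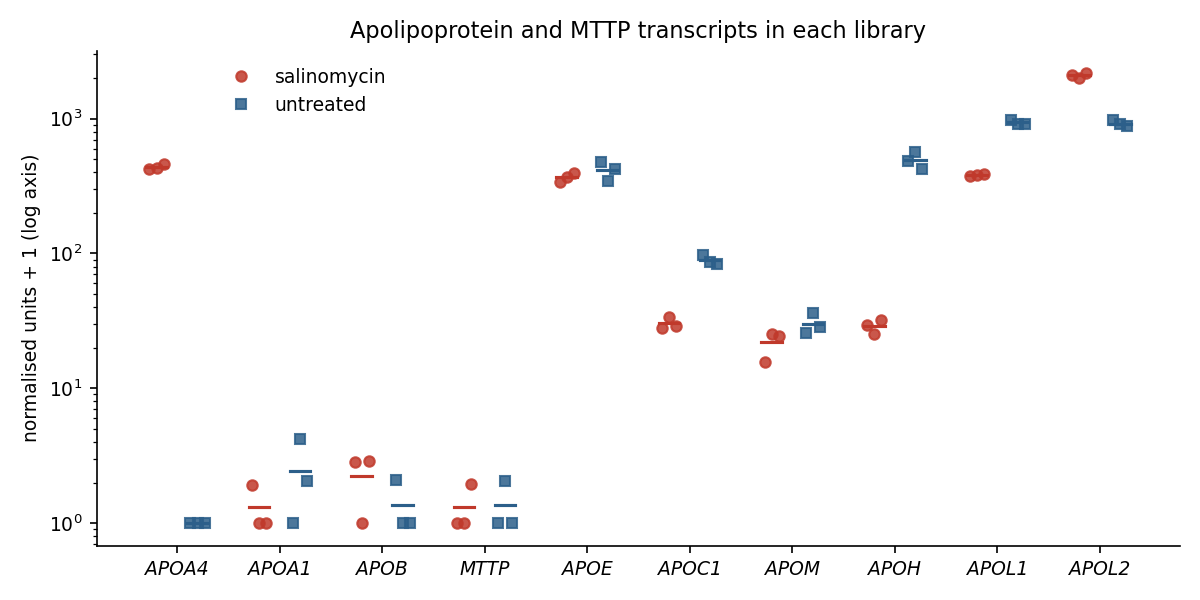
Normalised units plus 1 (log axis) of the 10 genes in each library, with salinomycin libraries as red circles left of untreated libraries as blue squares and a line at each group mean. APOA4 lies at 419 to 458 units with salinomycin and at 0 in every untreated library, and APOA1, APOB and MTTP stay at or below 3.19 units in all 6.

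The core of particle assembly was barely transcribed. MTTP, the subunit of the microsomal transfer protein that moves lipid (chromosome 4, 99563761 to 99623999, GRCh38), had 0, 0 and 0.939 units in salinomycin replicates 1 to 3, against 0, 1.06 and 0 units in untreated replicates 1 to 3. That is 1 read over each group. APOB, the structural protein of very low density lipoproteins and chylomicrons (chromosome 2, 21001429 to 21044073), had 1.85, 0 and 1.88 units with salinomycin, against 1.08, 0 and 0 units in untreated cells. APOB thus had 4 reads over the salinomycin libraries and 1 read over the untreated libraries, and the groups overlapped. For scale, 3 reads over a group correspond to 0.860 units with salinomycin and 1.15 units in untreated cells. A difference of about that size in either gene was not detectable at this depth. Neither gene exceeded 1.88 units in any library.

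APOA1, the main protein of high density lipoproteins (chromosome 11, 116835751 to 116837950), was as scarce. It had 0.926, 0 and 0 units with salinomycin, against 0, 3.19 and 1.07 units in untreated cells. With 1 read over the salinomycin libraries and 4 reads over the untreated libraries, its groups overlapped as well.

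APOA4 encodes apolipoprotein A-IV, a protein that in humans is secreted mainly by the intestine on chylomicrons (chromosome 11, 116820700 to 116823306). It had 419, 433 and 458 units in the salinomycin libraries, from 545, 422 and 556 estimated reads. In the untreated libraries it had 0, 0 and 0 units, without a single read. All 3 salinomycin libraries were thus far above all 3 untreated libraries, and they lay close to each other, with a coefficient of variation of 4.49% where counting alone gives 4.44%. Against a floor of 3 reads over the untreated group, APOA4 was at least 380-fold higher with salinomycin. The fitted change of a gene at 0 in one group depends on the number added before taking logs, and it came to 438-fold with 1 added, 874-fold with 0.5 added, 55.6-fold with 8 added and 766-fold with limma-voom on the estimated reads.

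Enterocyte markers are given beside APOA4 because the intestine is its main source. Of 10 such markers 7 had a value and 4 were tested. Of the 4, 2 were lower with salinomycin (limma adjusted p under 0.05), where 40.2% of all tested genes were. The others, ALPI and CDX2, did not pass. With salinomycin ALPI averaged 9.96 ± 2.35 and CDX2 13.7 ± 3.61 units, against 9.62 ± 4.63 and 11.8 ± 3.12 units in untreated cells (SD, n = 3 each). The summed level of the 7 markers with a value was 31.5 to 45.9 units with salinomycin and 180 to 205 units in untreated cells. Most of the untreated sum came from ANPEP, 1 of the 2 lower genes. It averaged 13.4 ± 5.70 units with salinomycin and 131 ± 6.13 units in untreated cells, so that the sum does not describe the list as a whole. VIL1, the microvillus protein villin, had 0, 0 and 0 units with salinomycin, against 32.4, 53.2 and 25.6 units in untreated cells. RBP2, an intestinal retinol-binding protein, had 0.926, 0 and 0 units with salinomycin and 0 in every untreated library. FABP2, SI and CDX1 had no value, and the part of intestinal transcripts in the result for APOA4 was not tested.

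APOE, the ligand by which cells take up remnant particles (chromosome 19, 44905754 to 44909393), had 339, 368 and 394 units with salinomycin. In untreated cells APOE had 480, 346 and 421 units, so that the groups overlapped and the lowest untreated library lay below 2 of the 3 salinomycin libraries. APOE averaged 367 ± 27.7 units with salinomycin and 416 ± 67.3 units in untreated cells (SD, n = 3 each), and its log2 change of -0.17 (SE 0.112, 95% interval of the fit -0.41 to 0.08) did not pass. The untreated libraries varied by 16.2% where counting alone gives 5.26%. Direction and call both depended on choices: with scaling by library size alone the log2 change of APOE was 0.02, and without untreated replicate 2 it was -0.30 and passed.

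APOC1, the neighbour of APOE and in humans an inhibitor of lipoprotein uptake and of cholesteryl ester transfer (chromosome 19, 44914247 to 44919349), was lower. It had 26.8, 32.8 and 28.2 units with salinomycin, against 96.2, 86.2 and 82.2 units in untreated cells. Every salinomycin library lay below every untreated library, by a log2 change of -1.56 (SE 0.158, 95% interval -1.91 to -1.21), or 2.95-fold lower. The reads were few, 101 over the salinomycin libraries and 231 over the untreated libraries. The ratio of APOC1 to APOE within a library was 0.0792, 0.0893 and 0.0714 with salinomycin, against 0.200, 0.249 and 0.195 in untreated cells. This ratio did not overlap between groups and, being taken within a library, does not depend on how libraries are scaled.

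APOM, the carrier of sphingosine-1-phosphate on high density lipoproteins (chromosome 6, 31652416 to 31658210), had 14.8, 24.4 and 23.5 units with salinomycin, against 24.9, 35.1 and 27.7 units in untreated cells. The highest salinomycin library and the lowest untreated library were less than 1 unit apart, and the groups overlapped before trimmed-mean scaling. Its log2 change was -0.48 (SE 0.248, 95% interval -1.03 to 0.06) and did not pass, with 72 reads over the salinomycin libraries and 77 over the untreated libraries. The annotation of APOM overlaps that of BAG6 on the other strand by 290 bases. BAG6, a chaperone gene, had 5256 ± 124 units with salinomycin and 3143 ± 133 units in untreated cells, and thus far more reads than APOM in every library. Whether counting used the strand is not given in the sources used here, and a share of BAG6 reads in APOM was not tested.

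APOH, a plasma glycoprotein that binds anionic phospholipids and is made mainly by the liver (chromosome 17, 66212033 to 66256525), had the lowest log2 change of the 10. It had 28.7, 24.4 and 31.0 units with salinomycin, against 483, 565 and 421 units in untreated cells. The groups were far apart, with every salinomycin library below every untreated library. The log2 change of APOH was -4.08 (SE 0.140, 95% interval -4.38 to -3.77), or 16.9-fold lower, which ranks 129 from the lowest of the 13088 tested genes. It rested on 99 reads over the salinomycin libraries and 1288 over the untreated libraries.

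Markers of hepatocytes and of the A549 line itself were mostly lower too. All 10 hepatocyte markers had a value and 7 were tested, of which 5 were lower, where 40.2% of all tested genes were, 1 was higher and 1 did not pass (limma). Their summed level was 1064 to 1093 units with salinomycin and 12201 to 15726 units in untreated cells. FGA, the fibrinogen alpha chain, had 143, 133 and 130 units with salinomycin, against 7296, 7919 and 6121 units in untreated cells. FGG, the gamma chain, had 281, 308 and 316 units with salinomycin, against 4759, 5342 and 3936 units in untreated cells. These fibrinogen genes were abundant in untreated A549 cells, and both were lower in every salinomycin library. SERPINA1, the antitrypsin gene, went the other way, at 534 ± 15.6 units with salinomycin and 263 ± 48.2 units in untreated cells (SD, n = 3 each). Of 8 markers of the A549 line all were tested, 7 were lower and 1 did not pass, and their median log2 change was -2.07. Their summed level was 100410 to 105249 units with salinomycin and 603842 to 625085 units in untreated cells. Among them AKR1B10, an aldo-keto reductase, was 17.6-fold lower and ALDH1A1, a retinal dehydrogenase, 7.20-fold lower (limma adjusted p = 1.36e-13 and 4.88e-12). The part of these transcripts in the result for APOH was not tested.

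**Figure D2:**
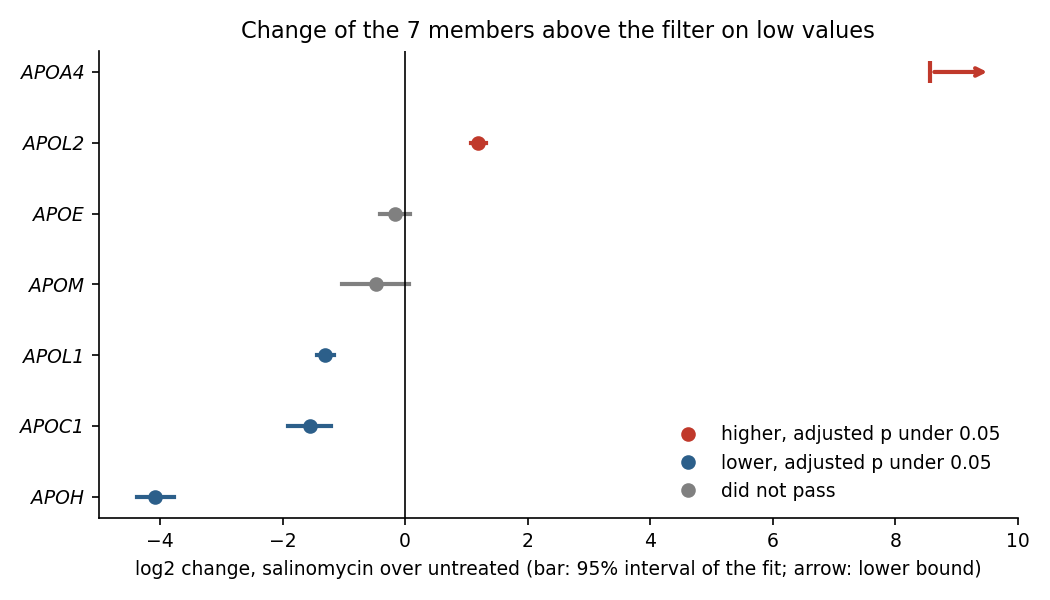
Log2 change (salinomycin over untreated) of the 7 genes above the filter on low values, with the 95% interval of the limma fit as a bar, red for higher, blue for lower and grey for genes that did not pass. APOA4 is drawn as an arrow from its lower bound of 8.57, and the others run from -4.08 (APOH) to 1.19 (APOL2).

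APOL1 and APOL2 are neighbouring members of a family that arose by duplication, and they moved in opposite directions. APOL1, whose secreted form kills African trypanosomes in human serum (chromosome 22, 36253010 to 36267530), had 372, 380 and 388 units with salinomycin, against 982, 911 and 914 units in untreated cells. The groups of APOL1 did not overlap, and it was 2.46-fold lower (log2 change -1.30, SE 0.0625, 95% interval -1.43 to -1.16). APOL2, a cytoplasmic relative (chromosome 22, 36226203 to 36239954), had 2118, 2013 and 2170 units with salinomycin, against 972, 908 and 878 units in untreated cells. Its groups did not overlap either, and it was 2.28-fold higher (log2 change 1.19, SE 0.0573, 95% interval 1.07 to 1.32).

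The balance of the pair was nearly even in untreated cells and far from it with salinomycin. The ratio of APOL2 to APOL1 was 5.69, 5.30 and 5.60 in the salinomycin libraries, against 0.990, 0.996 and 0.960 in the untreated libraries. It averaged 5.53 ± 0.204 with salinomycin and 0.982 ± 0.0193 in untreated cells (SD, n = 3 each), and no library of one group came near the other group. The genes are alike in sequence, and how reads that match both were counted is not given in the sources used here, so that the split between them is uncertain.

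**Figure D3:**
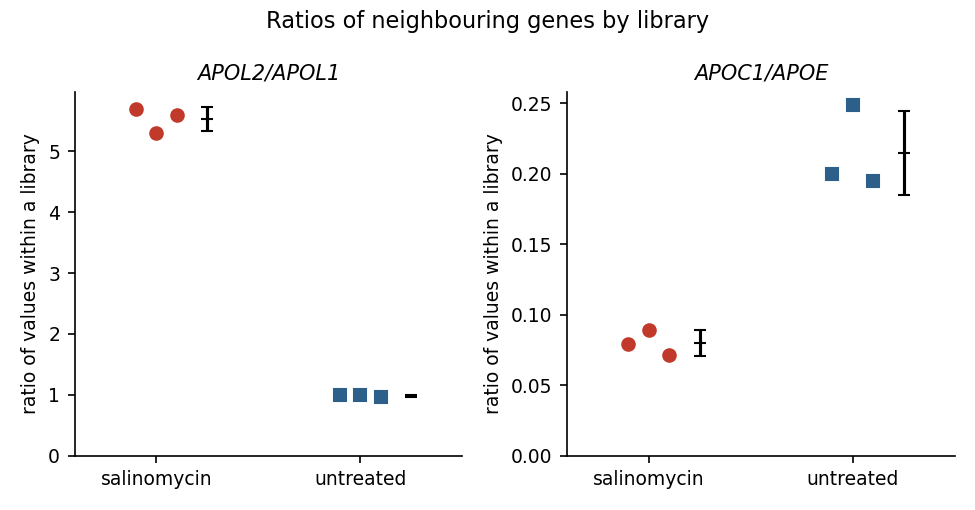
Ratios of APOL2 to APOL1 and of APOC1 to APOE within each library, with salinomycin libraries as red circles left of untreated libraries as blue squares and the mean with its SD in black. The ratio of APOL2 to APOL1 is 5.30 to 5.69 with salinomycin and 0.960 to 0.996 in untreated cells.

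Levels of different genes can be set side by side only per length, here as units per kb of annotated exon, which is approximate because the library protocol is not given in the sources used here. In salinomycin cells the order was APOL2 at 603 ± 23.0 units per kb, APOA4 at 297 ± 13.3, APOE at 167 ± 12.7 and APOL1 at 108 ± 2.21 (SD, n = 3). APOC1 at 23.8 ± 2.55 units per kb and APOH at 21.0 ± 2.52 followed and did not differ beyond their spread, and APOM was at 12.6 ± 3.18. In untreated cells APOH led at 368 ± 54.0 units per kb. APOL1 at 266 ± 11.3 units per kb and APOL2 at 264 ± 13.8 did not differ beyond their spread, and APOE at 190 ± 30.7, APOC1 at 71.6 ± 5.88 and APOM at 17.6 ± 3.18 came after them. APOA1, APOB and MTTP were at or under 0.997 units per kb in both groups.

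The shares of the 10 transcripts differed between groups while their sum per length overlapped. Together they had 1206, 1207 and 1285 units per kb with salinomycin, against 1233, 1195 and 1105 units per kb in untreated cells. APOL2 held 48.9 ± 1.32% of that sum with salinomycin and 22.4 ± 0.538% in untreated cells (SD, n = 3 each). APOA4 held 24.1 ± 0.400% with salinomycin and 0% in untreated cells. APOL2 and APOA4 thus made up the larger part of the sum in salinomycin cells. APOL1 held 8.76 ± 0.182% with salinomycin and 22.6 ± 0.929% in untreated cells. APOH held 1.70 ± 0.163% with salinomycin and 31.2 ± 3.75% in untreated cells, where it had the largest share.

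Neighbours in the same gene cluster did not move as blocks. On chromosome 11, APOC3, which slows the breakdown of triglyceride-rich particles, lies 6.40 kb from APOA4. APOC3 had 0, 0 and 0.939 units with salinomycin and 0 in every untreated library, so that APOA4 alone of the 3 measured genes of its cluster was transcribed beyond a few reads. On chromosome 19, APOC1 was lower while APOE, 4.85 kb away, did not pass. On chromosome 22, APOL3 had 12.0, 13.1 and 11.3 units with salinomycin, against 7.57, 7.45 and 4.27 units in untreated cells. APOL3, a relative of APOL1, was higher by a log2 change of 0.86 (SE 0.322, limma adjusted p = 0.027), but not without salinomycin replicate 1 (adjusted p = 0.059), salinomycin replicate 2 (0.074) or untreated replicate 3 (0.079). APOL4 had 0, 0.938 and 0 units with salinomycin and 0 in every untreated library. APOA5, APOC2 and APOC4 had no value.

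**Figure D4:**
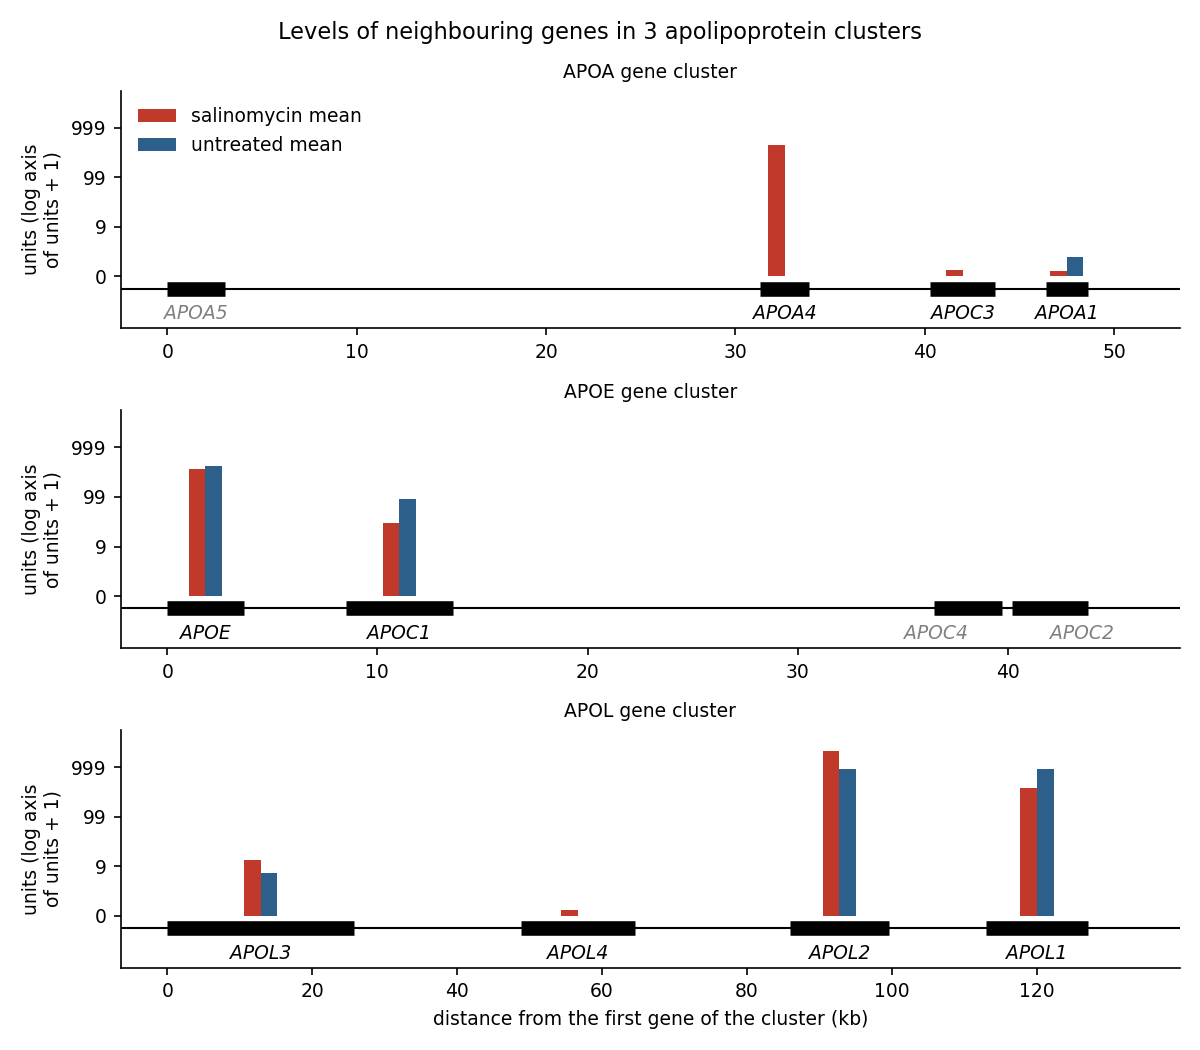
Mean normalised units (log axis of units plus 1) of genes in the APOA, APOE and APOL clusters, with salinomycin in red left of untreated in blue, placed by distance from the first gene of each cluster in kb; grey names have no value. In the APOA cluster APOA4 is at 437 units with salinomycin while APOC3 and APOA1 are at or below 1.42 units in both groups.

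Several of the genes share their place with other annotated transcripts. The 4 antisense or overlapping genes at APOA1 (APOA1-AS, 1834 bases), APOA4 (AP006216.3, 842 bases), APOB (AC010872.1, 675 bases) and APOC1 (AC011481.3, 722 bases) had no value of their own. MTTP overlaps the antisense gene AC083902.1 by 29201 bases, and AC083902.1 had no value either. MTTP also overlaps TRMT10A by 272 bases on the other strand, and TRMT10A had 54.8 ± 7.24 units with salinomycin and 52.1 ± 7.38 units in untreated cells (SD, n = 3 each). Without strand, reads of pairs on opposite strands cannot be told apart. AC011481.3 lies on the same strand as APOC1 and as APOE, which it overlaps by 19 bases, so that strand would not separate these reads.

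The authors' deposited table gave log2 fold changes in the same direction for the 5 genes that passed here. In the authors' deposited table APOA4 was at 8.87, APOL2 at 1.39, APOC1 at -1.37, APOL1 at -1.1 and APOH at -3.89. For APOE the authors' deposited table gave 0.0172, where the trimmed-mean scaling used here gave -0.17. Over all tested genes, the median log2 change lay 0.19 lower with trimmed-mean scaling than with scaling by library size.

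Beyond the 10, 4 lists held 72 other genes of lipoprotein biology, of which 63 had a value and 44 were tested. In these lists 21 genes were higher with salinomycin, 13 were lower and 10 did not pass, with a median log2 change of 0.13 against 0.02 over all tested genes. The shares of 41.6% higher and 40.2% lower over all tested genes are the background for each list. Genes of secretion from the endoplasmic reticulum were among the higher, and CLU, CD36, ABCA1 and the paraoxonases among the lower.

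Of 15 tested genes of lipoprotein assembly and secretion, 9 were higher, 2 were lower and 4 did not pass, with a median log2 change of 0.69. P4HB, protein disulfide isomerase and the other subunit of the microsomal transfer protein, had 109519, 113245 and 121448 units with salinomycin, against 20678, 19702 and 19729 units in untreated cells. P4HB was thus 5.72-fold higher (log2 change 2.52, SE 0.0606, limma adjusted p = 8.11e-12) while its partner MTTP stayed at 1 read over each group. P4HB also folds many other proteins. TMEM41B, a lipid scramblase, was 3.77-fold higher, at 2862 ± 258 units with salinomycin and 757 ± 34.3 units in untreated cells (limma adjusted p = 1.52e-10). MIA3, which helps large cargo leave the endoplasmic reticulum, was 3.37-fold higher, at 5210 ± 165 units with salinomycin and 1547 ± 64.4 units in untreated cells (limma adjusted p = 3.11e-11). The 2 lower genes, named after their values were seen, were SORT1, a sorting receptor (log2 change -0.73), and A1CF, the cofactor of APOB transcript editing (-1.35).

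Of 15 tested receptors and uptake genes, 5 were higher, 6 were lower and 4 did not pass. LSR, a receptor that takes up triglyceride-rich particles and was named after its values were seen, had 308, 338 and 391 units with salinomycin, against 69.2, 71.3 and 90.7 units in untreated cells. All 3 salinomycin libraries lay far above the untreated ones, and LSR was 4.45-fold higher (log2 change 2.15, SE 0.131, limma adjusted p = 1.61e-08). LIPA, the lysosomal lipase that frees cholesterol from particles taken up, also named after its values were seen, averaged 4162 ± 63.5 units with salinomycin and 1619 ± 41.7 units in untreated cells, 2.57-fold higher (limma adjusted p = 1.07e-10). CD36, a scavenger receptor, averaged 1.24 ± 1.08 units with salinomycin and 23.9 ± 4.14 units in untreated cells, 12.2-fold lower (limma adjusted p = 1.25e-05). AMN, the partner of cubilin, averaged 4.04 ± 2.12 units with salinomycin and 24.3 ± 6.09 units in untreated cells, 5.19-fold lower (limma adjusted p = 5.89e-05). Both are scarce, and with 8 added in place of 1 these folds were 3.45 for CD36 and 2.68 for AMN.

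Of 10 tested genes of remodelling and efflux, 5 were higher, 4 were lower and 1 did not pass. ABCA1, the transporter that loads cholesterol onto APOA1 and APOE, had 248, 261 and 209 units with salinomycin, against 1159, 1394 and 1566 units in untreated cells. ABCA1 was 5.70-fold lower (log2 change -2.51, limma adjusted p = 9.19e-10), without overlap between the groups. PON3, an antioxidant enzyme of high density lipoproteins, averaged 250 ± 12.9 units with salinomycin and 1409 ± 59.2 units in untreated cells, 5.61-fold lower (limma adjusted p = 1.79e-11). PON1, its serum relative, averaged 3.42 ± 1.43 units with salinomycin and 37.5 ± 6.90 units in untreated cells, 8.94-fold lower (limma adjusted p = 1.93e-06), or 3.97-fold with 8 added in place of 1. The lipases LPL and LIPC and the transfer protein CETP were below the filter.

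Of the other apolipoproteins 16 were listed, 11 had a value and 4 were tested, of which 2 were higher, 1 was lower and 1 did not pass. CLU, or clusterin, an extracellular chaperone also known as apolipoprotein J, averaged 9436 ± 72.0 units with salinomycin and 28309 ± 1950 units in untreated cells. It was 3.00-fold lower (limma adjusted p = 1.64e-10). APOD, a lipocalin that carries small lipids, averaged 209 ± 14.1 units with salinomycin and 105 ± 11.6 units in untreated cells, 1.98-fold higher (limma adjusted p = 6.41e-06). APOL6, on chromosome 22 as well and named after its values were seen, averaged 574 ± 64.5 units with salinomycin and 576 ± 35.5 units in untreated cells and did not pass (limma adjusted p = 0.93).

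**Figure D5:**
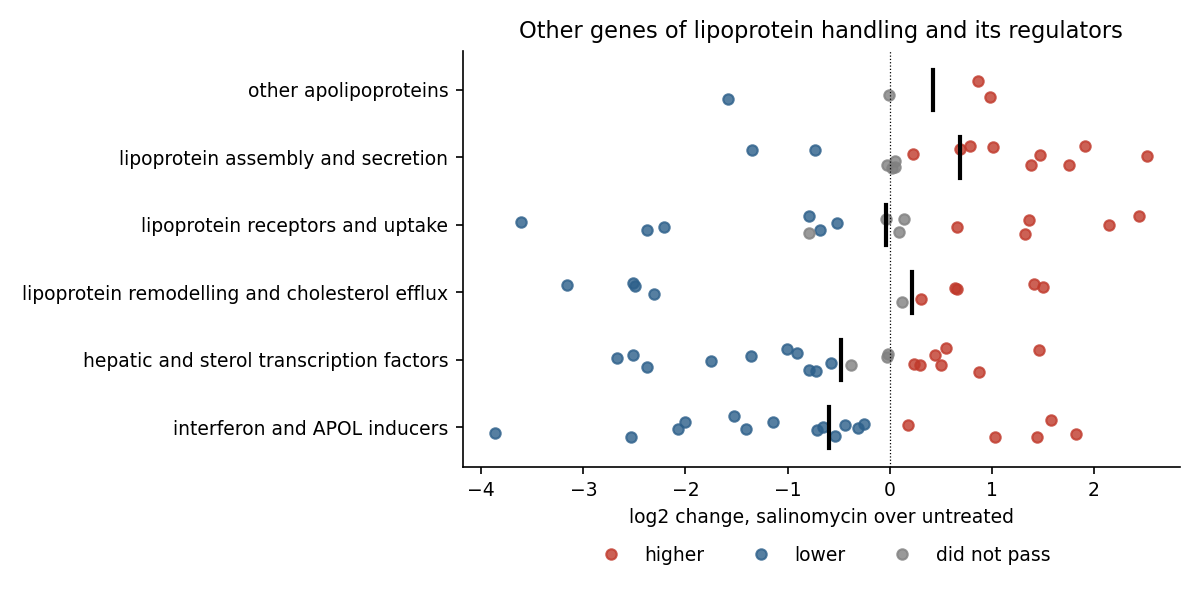
Log2 change (salinomycin over untreated) of the tested genes of 6 lists, 1 point a gene with a random vertical offset, red for higher, blue for lower and grey for genes that did not pass, with a black line at the median of each list. The median is 0.69 for assembly and secretion and -0.59 for interferon genes.

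The transcription factors known to act on apolipoprotein genes were mostly measured, 20 of 22 being tested. Of these, 7 were higher, where 41.6% of all tested genes were, 10 were lower, where 40.2% were, and 3 did not pass. Their median log2 change was -0.48. HNF4A, a nuclear receptor that drives many hepatic genes including apolipoproteins, had 188, 171 and 167 units with salinomycin, against 1159, 1027 and 1178 units in untreated cells. It was 6.36-fold lower (log2 change -2.67, SE 0.0800, limma adjusted p = 3.87e-11), without overlap. NR1H4, the bile acid receptor FXR, averaged 10.9 ± 1.85 units with salinomycin and 66.3 ± 8.89 units in untreated cells, 5.68-fold lower (limma adjusted p = 3.06e-07). PPARGC1A, a coactivator of hepatic genes, averaged 2.49 ± 1.05 units with salinomycin and 16.8 ± 2.99 units in untreated cells, 5.20-fold lower (limma adjusted p = 5.80e-05), or 2.36-fold with 8 added. CREB3L3, a membrane-bound factor that in mouse activates Apoa4 in liver and intestine, had 1 read over the salinomycin libraries and 4 over the untreated libraries. CREB3L3 was named after its values were seen. Any part of these factors in the changes of APOH or APOA4 was not tested.

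Interferon induces APOL1 and APOL2, so that a list of 18 interferon response genes and inducers was measured beside them, and all 18 were tested. Of these, 5 were higher, where 41.6% of all tested genes were, and 13 were lower, where 40.2% were. Their median log2 change was -0.59. GBP1, an interferon-induced GTPase, averaged 3.11 ± 1.07 units with salinomycin and 57.5 ± 7.60 units in untreated cells, 14.5-fold lower (limma adjusted p = 9.45e-08), or 5.89-fold with 8 added. IFIT1, an RNA-binding antiviral protein, averaged 31.1 ± 9.42 units with salinomycin and 180.0 ± 37.1 units in untreated cells, 5.76-fold lower (limma adjusted p = 5.19e-07). MX1, another antiviral GTPase, averaged 38.0 ± 7.75 units with salinomycin and 162 ± 24.3 units in untreated cells, 4.20-fold lower (limma adjusted p = 3.47e-07). The 5 higher genes, named after their values were seen, were STAT2 (log2 change 1.44), IRF7 (1.82), ISG15 (1.58), RELA (1.03) and NFKB1 (0.18). The list thus held genes of both directions, as did the pair of APOL1 and APOL2, and the part of interferon signalling in either was not tested.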

How the data were processed

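Gene-level RNA-seq values of 6 libraries, 3 with salinomycin and 3 untreated, were compared. Reads were placed on GRCh38, per the submitters' processing notes, while the sources used here do not give the aligner, read counter, annotation or strand of counting. Deposited signal values were whole numbers, rescaled per library by the authors (totals within 0.692%), and the lowest was 1. Per the file headers the table also held the authors' log2 fold changes, log10 means, linear ratios of the groups, test scores and p-values, and a second deposited table held enrichment scores and p-values of gene sets. Reads were estimated from the rounding steps of the low values (scale factors 0.831 to 1.2035), and floors of 3 reads cover counting error only. Depth thus set the precision of scarce genes. The intervals given for log2 changes are those of the limma fit, which uses the spread between libraries of a group.

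For the fit, 1 was taken from each value and the rest divided by the product of a trimmed-mean factor (30% of log ratios and 5% of levels trimmed) and the relative library total, which came to 1.065 to 1.08 for salinomycin and 0.925 to 0.9399 for untreated libraries. Log2 of these units plus 1 was fitted with limma 3.58.1 in R 4.3.3 with a mean-variance trend, over the 13088 genes at 10 or more in at least 3 libraries, with Benjamini-Hochberg adjustment over all of them and a threshold of 0.05. The fit was tested on simulated data in which few genes changed, none of them scarce. That test does not cover scaling under changes as broad as these. Folds of scarce genes are understated on this scale. Chi-square per gene between libraries of a group was 2.86 to 6.74, beyond counting noise; what the replicates were separate in beyond the label is not stated, so p-values measure the spread between these samples.

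The 10 genes, the gene and marker lists and the motifs were chosen with earlier results of these data known. Named were the 10 genes, their cluster neighbours and, in each of 6 lists, the 3 genes with the largest log2 change past the threshold; others are marked as chosen after their values were seen. Not every gene that meets this rule is reported here. Gene coordinates (1-based, GRCh38) were read from GENCODE 29. Alternatives were other scalings, filters and pseudocounts, a replicate block, limma-voom on estimated reads and leaving out each library in turn. Same-numbered libraries did not deviate together (Pearson's r of deviations across genes -0.172, -0.0131 and -0.0326), so the numbers were not taken as pairs.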

Additional observations from a re-analysis of the deposited data

How the results depend on the processing

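Under each of 15 alternatives, 2 of the 10 genes were higher with salinomycin, and 3 were lower, except for 4 with upper-quartile scaling and without untreated replicate 2, where APOE passed (log2 change -0.26 and -0.30). With library-size scaling APOE reversed, at 0.02, and the median log2 change over all tested genes was 0.19 higher as well. What set the scalings apart was not tested. Other lipoprotein genes numbered 19 to 28 higher and 9 to 14 lower over the alternatives, with the 28 under library-size scaling and the 9 under a filter of 50, which tests fewer genes; leaving out 1 library gave 19 to 21 higher. With the replicate block 2 of the 10 genes were higher and 3 lower, and 21 other lipoprotein genes were higher and 13 lower, and it changed no call of a named gene. APOL3 no longer passed without salinomycin replicate 1 (0.86), salinomycin replicate 2 (0.79) or untreated replicate 3 (0.63). Of 368 values of 25 named genes under the alternatives, 362 kept direction and side of the threshold. The log2 change over the alternatives was -1.65 to -1.37 for APOC1, -4.18 to -3.78 for APOH, -1.38 to -1.11 for APOL1, 1.11 to 1.38 for APOL2 and -0.61 to -0.27 for APOM. Depth limits APOA1, APOB, MTTP, APOC3 and APOL4, at 4 reads or fewer a group.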

Other observations

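Markers of other cell types were also read. Of 10 alveolar and airway markers 7 had a value and 5 were tested, with 4 higher and 1 lower, where 41.6% of all tested genes were higher and 40.2% lower, and their summed level was 3808 to 4237 units with salinomycin and 2996 to 4457 units in untreated cells. LAMP3, a lysosomal membrane protein of alveolar type II and dendritic cells, had 66.7, 76.9 and 57.3 units with salinomycin, against 3.24, 4.26 and 5.34 units in untreated cells. ABCA3, the phospholipid transporter of surfactant bodies, averaged 3278 ± 149 units with salinomycin and 1821 ± 246 units in untreated cells (SD, n = 3 each), 1.81-fold higher (limma adjusted p = 1.21e-06). The 1 lower gene was MUC5AC, at 1009, 728 and 314 units with salinomycin, against 1166, 2865 and 1525 units in untreated cells. Its log2 change was -1.49 (limma adjusted p = 0.0031). SFTPB and SFTPC stayed at or below 1.08 units in every library. Of 8 macrophage markers 6 had a value and 3 were tested, with 2 lower, and their summed level was 48.8 to 81.7 units with salinomycin and 238 to 268 units in untreated cells. These genes were chosen after their values were seen.

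Of gene sets named for lipoproteins, the authors' deposited table held 19, of which 17 had a normalised enrichment score above 0 and 2 below 0. Of the 19, the authors' deposited table gave 0 with an adjusted p under 0.05, the lowest being 0.128, and 4 with an unadjusted p under 0.05. The tool behind these scores is not given in the sources used here.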
